A study of Mus musculus with 4 samples.

Results

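Transcripts that mark pericytes and smooth muscle cells were compared between tumors that expressed p62-EGFP and tumors that expressed EGFP alone. The genes described are 10 taken by name: Rgs5, Pdgfrb, Cspg4 and Des, which are used as markers of pericytes, and Acta2, Tagln, Cnn1, Myh11, Mylk and Smtn, which encode parts of the smooth muscle contractile apparatus. They were measured by 20 of the 22626 probe sets of the array that are not controls, all 20 annotated to exactly 1 of these symbols. A probe set was tested where its mean over the 4 tumors was high enough, a limit of 5.60 in log2(signal + 16), or a signal of about 32.7. This left 9 probe sets of 6 genes with a test, and 11 probe sets with values only. Cspg4, Des, Cnn1 and Myh11 had no tested probe set.

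All 4 tumors came from immortalized baby mouse kidney epithelial (iBMK) cells of genotype ATG5-/- that carry Bcl-2, an inhibitor of apoptosis. Loss of ATG5 blocks autophagy, and p62 is an adaptor protein that autophagy normally degrades. The cells expressed p62 fused to the green fluorescent protein EGFP in 2 tumors and EGFP in the other 2, and they were injected under the skin of nude (NCR Nu/Nu) mice, which lack most T cells, with no treatment. RNA of each tumor was hybridized to 1 Mouse Genome 430A 2.0 array, and the values are MAS5 signals on a linear scale. Differences are given as p62-EGFP minus EGFP. Tumor and host cells are both from the mouse, so the array does not tell their transcripts apart, and whether each tumor grew in its own mouse or from its own culture is not given by the labels.

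Pericytes are the contractile cells that wrap capillaries. Endothelial cells recruit them by releasing PDGF-B, which acts on the receptor PDGFR-beta on the pericyte. Smooth muscle cells of larger vessels share part of this program and add a contractile set of actin, myosin and regulatory proteins, many of whose genes are driven by serum response factor (SRF) with its coactivators of the myocardin family, bound at a motif named the CArG box. Fibroblasts of tumors and epithelial cells in culture can also express Acta2 and Tagln, so these genes are not specific to vessel walls.

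The promoters of Acta2 and Rgs5 are shown because the brightest probe sets of these genes separated the groups in opposite directions. Both windows run from 250 bases before to 50 bases after the gene's start in RefSeq's GRCm38.p6 and were read in the direction of transcription. Acta2 lies on the minus strand at chr19:34255324-34255623 and Rgs5 on the plus strand at chr1:169655251-169655550. Capitals mark stretches that differ from the CArG box at 1 of its 10 positions.
Acta2: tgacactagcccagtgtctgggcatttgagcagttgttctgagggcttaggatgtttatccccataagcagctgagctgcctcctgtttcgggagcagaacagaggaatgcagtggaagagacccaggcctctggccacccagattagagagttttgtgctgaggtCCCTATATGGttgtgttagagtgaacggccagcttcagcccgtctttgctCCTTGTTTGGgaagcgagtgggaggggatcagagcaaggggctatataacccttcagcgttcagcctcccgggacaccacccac
Rgs5: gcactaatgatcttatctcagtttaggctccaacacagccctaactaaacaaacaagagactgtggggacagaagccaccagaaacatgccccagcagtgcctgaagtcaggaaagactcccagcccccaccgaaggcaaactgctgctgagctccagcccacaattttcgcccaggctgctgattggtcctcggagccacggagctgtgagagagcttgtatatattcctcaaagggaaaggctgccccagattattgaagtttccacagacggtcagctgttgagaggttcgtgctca
The Acta2 window held 2 such stretches, one that begins 84 bases before the start and one that begins 34 bases before it. The Rgs5 window held none. No window of the 7 genes with a promoter in the table held an exact CArG box, and Cspg4 was the only other with a near match, of 2 overlapping stretches. The CArG box reads the same on both strands, so one search covered them. Over all 32851 promoters of the table, 1.63% held an exact CArG box, 21.1% held an exact box or one with 1 mismatch, and 3.38% held 2 or more stretches with 1 mismatch. A match describes letters only. Tagln, Myh11 and Pdgfrb had no entry used here.

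The 4 tumors were not alike in their host tissue. The 15 skeletal muscle markers summed to a signal of 5597 and 98.6 in p62-EGFP tumors 1 and 2, against 83.7 and 874 in EGFP tumors 1 and 2. The macrophage and leukocyte markers, 11 of 12 listed, summed to 2051 and 2145 in the p62-EGFP tumors, against 1149 and 9029 in the EGFP tumors. p62-EGFP tumor 1 thus stood apart by muscle transcripts and EGFP tumor 2 by leukocyte transcripts. Over the 13576 probe sets tested, the difference between the tumors of a group had an SD of 0.27 on the log2 scale for p62-EGFP and 0.60 for EGFP.

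Rgs5 read lower and Acta2 and Tagln read higher in the p62-EGFP tumors, and for all 3 genes the brightest probe set separated the groups. Pdgfrb and Mylk also read lower, mainly against EGFP tumor 2. None of the 9 tested probe sets passed limma's test with Benjamini-Hochberg adjustment over the whole table (adjusted p from 0.156 to 0.651), where 0.0884% of all tested probe sets passed. At an unadjusted p below 0.05 there were 4 of the 9, the 2 brighter probe sets of Rgs5 and those of Acta2 and Tagln, against 14.5% of all tested probe sets. The groups did not overlap for 8 of the 9, with p62-EGFP higher for 3 and lower for 5, where 26.7% of all tested probe sets lay above and 22.2% below. Counted by gene, with the brightest probe set of each, 3 of 6 lay above and 3 below. The median log2 difference was -0.70 over the 9 probe sets and -0.25 over the 6 genes, beside 0.017 over all tested probe sets, and the first of these was -0.18 without EGFP tumor 2. With 2 tumors against 2, the smallest p that an exact two-sided permutation test of 1 probe set allows is 0.333. The genes are described as measured in bulk tissue, in which fewer cells of a type and less RNA per cell cannot be told apart.

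**Figure D1:**
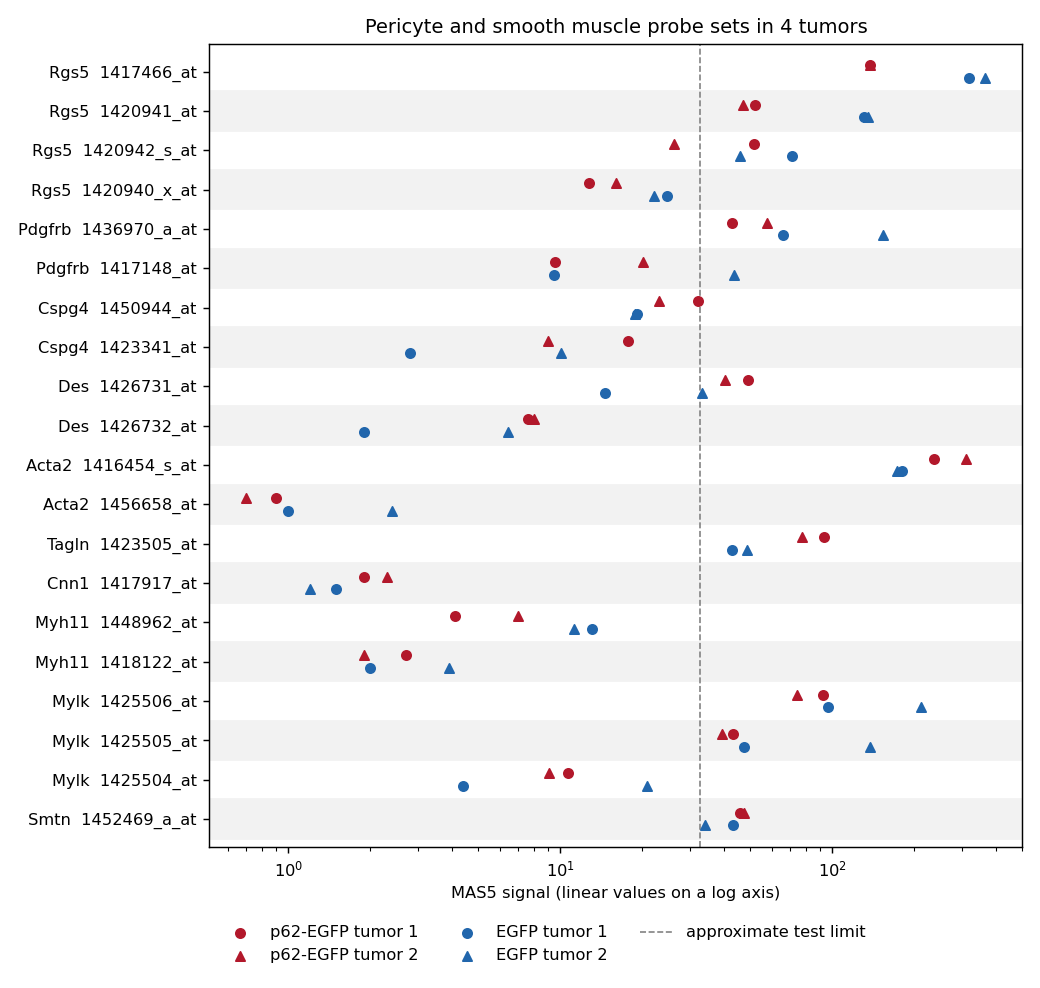
MAS5 signal (log axis) of all 20 probe sets of the 10 genes, 1 point per tumor, with p62-EGFP tumors in red above EGFP tumors in blue. The dashed line marks a signal of 32.7, about where testing began. The brightest probe set of Rgs5 sits to the left, and those of Acta2 and Tagln to the right, in the p62-EGFP tumors, and both probe sets of Myh11 and the one of Cnn1 stay at signals of 13.1 or less.

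Rgs5 encodes a regulator of G protein signalling that shortens the response of G protein-coupled receptors and is among the transcripts most used to mark pericytes. Its brightest probe set, 1417466_at, read 138 and 138 in p62-EGFP tumors 1 and 2, against 319 and 367 in EGFP tumors 1 and 2. The p62-EGFP tumors gave nearly the same value, and both were below either EGFP tumor. The mean signal was 138 ± 0.071 in the p62-EGFP tumors and 343 ± 33.9 in the EGFP tumors (SD, n = 2 each), a ratio of 0.401. On the log2(signal + 16) scale, which understates differences of dim probe sets, the difference was -1.22 (SE 0.16, 95% interval -1.63 to -0.81, limma adjusted p = 0.156).

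The second Rgs5 probe set, 1420941_at, read 52.2 and 46.9 in the p62-EGFP tumors, against 131 and 136 in the EGFP tumors. Its difference of -1.19 (SE 0.17, 95% interval -1.61 to -0.76, limma adjusted p = 0.161) was close to that of the brightest. The third, 1420942_s_at, read 51.6 and 26.2 in the p62-EGFP tumors, against 71.5 and 45.7 in the EGFP tumors. Here the groups overlapped, since p62-EGFP tumor 1 lay above EGFP tumor 2, and the difference was -0.46 (95% interval -1.26 to 0.34, limma adjusted p = 0.532). The fourth, 1420940_x_at, read 12.8 and 16.1 against 24.7 and 22.1, lower in both p62-EGFP tumors but too dim for the test. The endings _s_at and _x_at mark probe sets that may bind more than 1 transcript. All 4 probe sets thus had the lower mean in the p62-EGFP tumors, and 3 separated the groups, where 22.2% of all tested probe sets lay lower. The 4 probe sets read the same gene in the same tumors and are not independent.

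Rgs5 lies on chromosome 1, where the median log2 difference of 428 other tested genes was 0.15. Endothelial markers were lower in the p62-EGFP tumors, as was Rgs5. Their 14 genes summed to 326 and 411 in the p62-EGFP tumors, against 583 and 801 in the EGFP tumors. Of the 9 tested, 7 lay lower in both p62-EGFP tumors and 0 lay higher, where 22.2% of all tested probe sets lay lower. Their median log2 difference was -0.76, with 0 past limma's adjusted threshold (5 lower at an unadjusted p below 0.05). Flt1 and Tek, named after their values were seen, had overlapping groups and log2 differences of 0.20 and 0.077. The endothelial adhesion gene Esam read 45.5 and 55.3 against 85.3 and 108, Pecam1 (CD31) 41.1 and 54.9 against 63.7 and 122, and Eng, the TGF-beta co-receptor endoglin, 30.4 and 40.3 against 50.5 and 108. The defining marker Erg, named after its values were seen, was near 0 in all 4 tumors, at 0.6 to 1.6. The part of endothelial cell content in the Rgs5 difference was not tested.

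Pdgfrb encodes PDGFR-beta, the receptor by which pericytes are recruited and also a marker of fibroblasts. Its brighter probe set read 42.9 and 57.6 in the p62-EGFP tumors, against 65.9 and 154 in the EGFP tumors. The p62-EGFP tumors were the 2 lowest, and EGFP tumor 2 was 2.34-fold above EGFP tumor 1. The log2 difference was -0.84 (SE 0.38, 95% interval -1.80 to 0.11, limma adjusted p = 0.377). Without EGFP tumor 2 it was -0.31. The dimmer probe set read 9.6 and 20.1 against 9.5 and 43.5, with overlapping groups, and was not tested. Chromosome 18, on which Pdgfrb lies, had a median difference of -0.16 over 192 other tested genes.

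Cspg4 encodes NG2, a surface proteoglycan of pericytes that is also found on other immature cells. Its brighter probe set read 32.2 and 23.0 in the p62-EGFP tumors, against 19.1 and 18.8 in the EGFP tumors. The p62-EGFP tumors were higher, by 0.31 on the log2 scale, at a level too dim for the test. The dimmer probe set read 17.8 and 9.0 against 2.8 and 10.1, and the groups overlapped.

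Des encodes desmin, an intermediate filament protein of pericytes and of all muscle types. Its brighter probe set read 49.1 and 40.5 in the p62-EGFP tumors, against 14.6 and 33.3 in the EGFP tumors. Both p62-EGFP tumors were higher, and the EGFP tumors differed from each other by 2.28-fold. The log2 difference was 0.64. Its mean in log2(signal + 16) rounded to 5.60 and lay just under the limit for testing. With no filter limma gave an adjusted p of 0.474. It also entered the test with quantile normalization and with a pseudocount of 64, at limma adjusted p of 0.374 and 0.386. The dimmer probe set read 7.6 and 8.0 against 1.9 and 6.4. Skeletal muscle also contains desmin. Its markers summed to 5597 and 98.6 in p62-EGFP tumors 1 and 2, against 83.7 and 874 in EGFP tumors 1 and 2. The part of skeletal muscle in the Des difference was not tested.

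Thus the 4 pericyte markers did not all differ one way. Rgs5 and Pdgfrb had lower means in the p62-EGFP tumors, and Cspg4 and Des had higher means at low signals.

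Acta2 encodes smooth muscle alpha-actin, the thin filament protein of smooth muscle cells and activated fibroblasts. Its bright probe set, 1416454_s_at, read 238 and 311 in the p62-EGFP tumors, against 181 and 174 in the EGFP tumors. Both p62-EGFP tumors were higher, and the mean signal was 274 ± 51.7 in p62-EGFP and 177 ± 4.95 in EGFP tumors (SD, n = 2 each), 1.55-fold higher in p62-EGFP. The log2 difference was 0.57 (SE 0.19, 95% interval 0.10 to 1.05, limma adjusted p = 0.294). This interval covers 1 probe set and is not adjusted for the number tested.

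Actin genes are closely related, and probe sets ending in _s_at may bind more than 1 transcript, so other actins may add to this signal. The skeletal actin gene Acta1 read 1141 and 7.9 in p62-EGFP tumors 1 and 2, against 9.3 and 212 in EGFP tumors 1 and 2. The part of other actins in the Acta2 difference was not tested. The second Acta2 probe set read between 0.7 and 2.4 in all 4 tumors and carried no usable signal.

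Tagln encodes transgelin (SM22-alpha), an actin-binding protein that appears early in smooth muscle and in fibroblasts that become contractile. It read 93.1 and 77.4 in the p62-EGFP tumors, against 42.9 and 48.5 in the EGFP tumors. Both p62-EGFP tumors were higher, with means of 85.2 ± 11.1 and 45.7 ± 3.96 (SD, n = 2 each), 1.87-fold higher in p62-EGFP. The log2 difference was 0.71 (SE 0.19, 95% interval 0.23 to 1.19, limma adjusted p = 0.240). Its chromosome, 9, had a median difference of -0.024 over 435 other tested genes, and that of Acta2, chromosome 19, -0.099 over 291.

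Fibroblast markers were uneven between tumors. Their 10 genes summed to 2720 and 3453 in the p62-EGFP tumors, against 1170 and 3812 in the EGFP tumors. Their median log2 difference was 0.20, with 7 genes above 0 and 3 below. Of the 10, 2 were higher in both p62-EGFP tumors and 0 lower, where 26.7% and 22.2% of all tested probe sets were. Past limma's adjusted threshold there were 0 (1 higher at an unadjusted p below 0.05). The collagen gene Col3a1 read 844 and 1266 against 456 and 1296, Col1a2 622 and 803 against 235 and 858, and the matrix gene Postn 525 and 505 against 133 and 201. The 8 epithelial markers, which the tumor cells themselves can carry, summed to 1555 and 2315 in the p62-EGFP tumors, against 1601 and 742 in the EGFP tumors. Of 6 tested epithelial genes 6 had a higher mean in p62-EGFP, and 0 passed (1 higher at an unadjusted p below 0.05, limma). Both p62-EGFP tumors were higher for 2 of the 6, beside the same 26.7% of all tested probe sets. The keratin genes Krt18 and Krt19 read 545 and 627 against 730 and 254, and 333 and 341 against 93.6 and 156, and the adhesion gene Epcam 361 and 660 against 351 and 109. The part of either cell type in the Acta2 and Tagln differences was not tested.

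Mylk encodes myosin light chain kinase, which starts smooth muscle contraction by phosphorylating the regulatory light chain and is also made in a longer form by endothelial and other nonmuscle cells. Its brightest probe set, 1425506_at, read 92.3 and 74.4 in the p62-EGFP tumors, against 96.3 and 213 in the EGFP tumors. The p62-EGFP tumors were lower, but p62-EGFP tumor 1 and EGFP tumor 1 were close, and EGFP tumor 2 was 2.21-fold above EGFP tumor 1. The log2 difference was -0.70 (95% interval -1.61 to 0.22, limma adjusted p = 0.426), and -0.18 without EGFP tumor 2. The second probe set, 1425505_at, read 43.4 and 39.4 against 47.5 and 139, a difference of -0.79 (95% interval -1.87 to 0.30, limma adjusted p = 0.445), and -0.15 without EGFP tumor 2. The third read 10.7 and 9.1 against 4.4 and 20.8 and was too dim for the test. Chromosome 16, on which Mylk lies, had a median difference of 0.17 over 260 other tested genes. All 3 Mylk probe sets were highest in EGFP tumor 2, the tumor in which the leukocyte markers summed to 9029. The sums of endothelial (801), fibroblast (3812) and adipocyte markers (2003) were also highest in that tumor. Those of skeletal muscle and epithelial markers were highest in a p62-EGFP tumor. Fabp4 and Lpl made up nearly all of the adipocyte sum, while the dim adipocyte markers Adipoq and Cidec read highest in p62-EGFP tumor 2. The macrophage lysozyme gene Lyz2 read 644 and 686 in the p62-EGFP tumors, against 314 and 1455 in the EGFP tumors, the complement gene C1qa 427 and 410 against 249 and 1765, and the macrophage growth factor receptor gene Csf1r 306 and 309 against 159 and 941. Of the 10 tested leukocyte genes 0 separated the groups and 0 passed limma's adjusted threshold (0 at an unadjusted p below 0.05), and their median log2 difference was -0.70. The part of leukocytes, or of endothelial cells, fibroblasts or adipocytes, in the Mylk and Pdgfrb differences was not tested.

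Smtn encodes smoothelin, an actin-binding protein of contractile smooth muscle. It read 45.8 and 47.6 in the p62-EGFP tumors, against 43.1 and 34 in the EGFP tumors. The p62-EGFP tumors were slightly higher, by 0.21 on the log2 scale (SE 0.20, 95% interval -0.30 to 0.71, limma adjusted p = 0.651). Chromosome 11, on which Smtn lies, had a median difference of 0.30 over 696 other tested genes, more than that of Smtn.

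Cnn1 encodes calponin, and Myh11 encodes smooth muscle myosin heavy chain, the most specific marker of mature smooth muscle. Cnn1 read 1.9 and 2.3 in the p62-EGFP tumors, against 1.5 and 1.2 in the EGFP tumors. The brighter Myh11 probe set read 4.1 and 7.0 against 13.1 and 11.2, and the other read 2.7 and 1.9 against 2.0 and 3.9. These values were far below the limit for testing. Cnn1 and Myh11 were therefore too dim to test, while Acta2, Tagln, Mylk and Smtn had probe sets past the limit. The words smooth muscle name the genes here and not a cell type shown to be present.

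**Figure D2:**
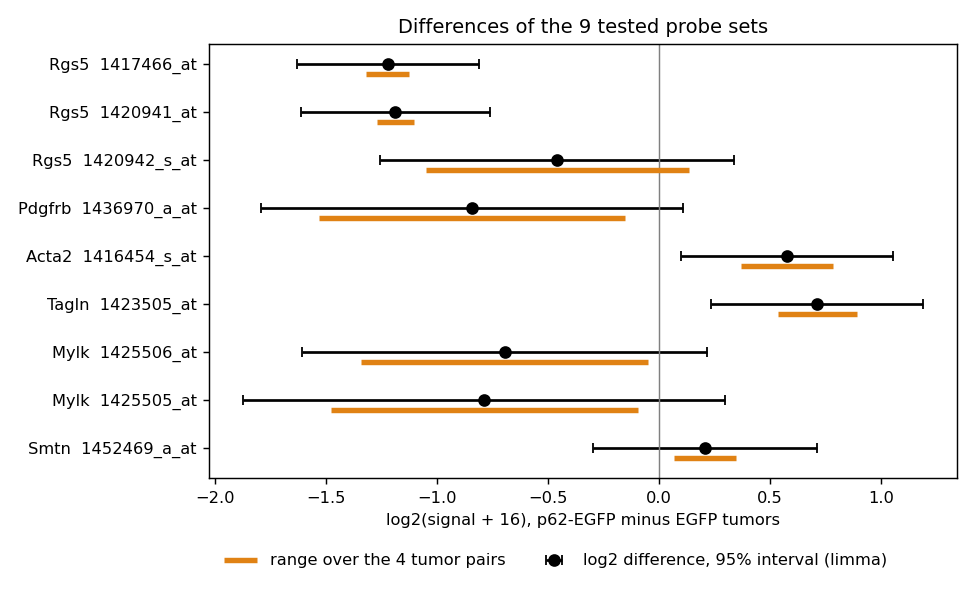
Difference in log2(signal + 16), p62-EGFP minus EGFP, of the 9 tested probe sets, with the 95% interval of limma in black and the range over the 4 pairs of a p62-EGFP and an EGFP tumor in orange. The intervals of 2 Rgs5 probe sets lie below 0 and those of Acta2 and Tagln above it, while the other 5 include 0; no probe set passed after adjustment.

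The gap between tumors of a group set how each difference can be read. For 4 of the 9 tested probe sets the difference between groups was larger than the gap within either group. They were the 2 brighter Rgs5 probe sets, Acta2 and Tagln. For the other 5 the gap between the EGFP tumors was larger than the difference between groups. For Pdgfrb and the brighter 2 Mylk probe sets the gaps between the p62-EGFP tumors were 0.32, -0.26 and -0.10 on the log2 scale (tumor 2 minus tumor 1). The gaps between the EGFP tumors were 1.06, 1.03 and 1.28 for the same probe sets, higher in EGFP tumor 2 in each case. For Rgs5, in contrast, the brightest probe set had almost no gap between the p62-EGFP tumors and one of 0.19 between the EGFP tumors beside a difference of -1.22.

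**Figure D3:**
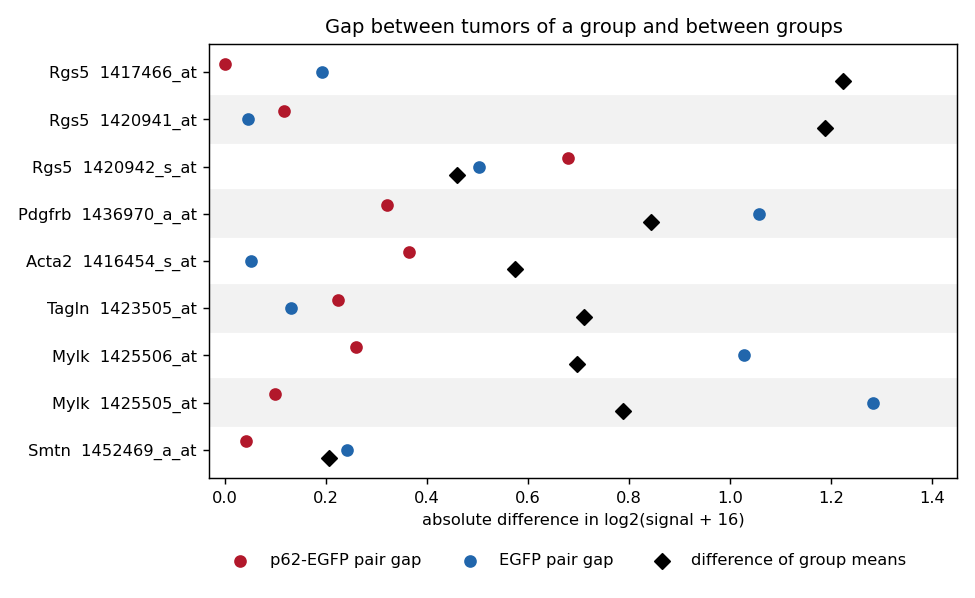
Absolute gap in log2(signal + 16) between the 2 p62-EGFP tumors (red) and the 2 EGFP tumors (blue), beside the absolute difference of the group means (black), for the 9 tested probe sets. The black point lies farthest to the right for 2 Rgs5 probe sets, Acta2 and Tagln. The blue point passes it for the other 5, which are Pdgfrb, both Mylk probe sets, Smtn and the dimmest tested Rgs5 probe set.

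The calls depended on which tumor was left out. Without EGFP tumor 1, 6 of the 9 passed limma's adjusted threshold, as did 20.9% of all tested probe sets, and without EGFP tumor 2, 3 of the 9 passed, as did 9.42% of all. In both fits the spread comes from the p62-EGFP pair alone, and the lone EGFP tumor is assumed to vary like that pair. The 2 brighter Rgs5 probe sets and Tagln passed in both (adjusted p = 5.35e-04 and 0.00372 for the brightest of Rgs5, and 0.0371 and 0.0326 for Tagln). Pdgfrb and both Mylk probe sets passed without EGFP tumor 1 and not without EGFP tumor 2. Without p62-EGFP tumor 1 or tumor 2, limma passed 0 of all probe sets (534 and 542 at an unadjusted p below 0.05, of which 3 and 2 were among the 9). The log2 difference of the brightest Rgs5 probe set ran from -1.32 to -1.13 over these 4 fits, that of Tagln from 0.60 to 0.82, and that of Acta2 from 0.39 to 0.76.

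Because Rgs5 differed in the opposite direction to Acta2 and Tagln, the separation was also taken as a difference of log2 differences, as a description. These contrasts combine differences already given and add no further evidence. Acta2 minus Rgs5 was 1.80 higher in the p62-EGFP tumors, with SDs of 0.26 in p62-EGFP and 0.17 in EGFP tumors (n = 2 each). Tagln minus Rgs5 was 1.93 higher, with SDs of 0.16 and 0.044. Pdgfrb minus Rgs5 was 0.38 higher, with SDs of 0.23 and 0.61, which is within the spread of the EGFP tumors. Mylk minus Rgs5 was 0.53 higher, with SDs of 0.18 and 0.59, also within that spread.

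**Figure D4:**
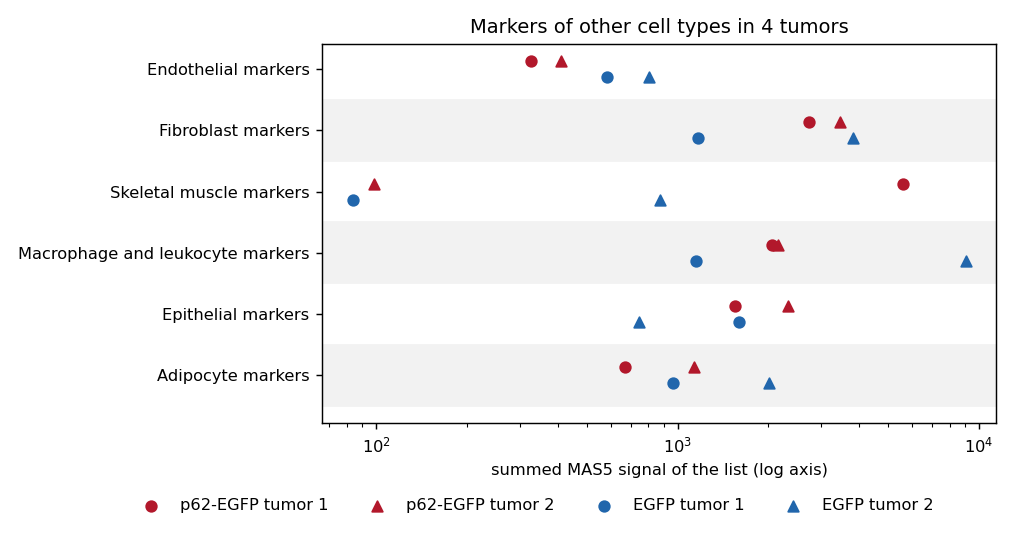
Summed MAS5 signal (log axis) of 6 lists of markers of other cell types, the brightest probe set of each gene, in p62-EGFP tumors (red, upper) and EGFP tumors (blue, lower). Endothelial markers were lower in both p62-EGFP tumors, skeletal muscle markers stood at 5597 in p62-EGFP tumor 1 and leukocyte markers at 9029 in EGFP tumor 2.

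Ligands and the sister receptor of PDGFR-beta gave 0 of 4 tested genes past limma's adjusted threshold (1 lower at an unadjusted p below 0.05), with a median log2 difference of -0.020. Pdgfb, the ligand that recruits pericytes, read 19.0 and 30.0 in the p62-EGFP tumors, against 50.1 and 46.2 in the EGFP tumors. It lay lower in both p62-EGFP tumors, by -0.68 (SE 0.23, limma adjusted p = 0.297), as did Pdgfrb. Pdgfc read 152 and 140 against 54.2 and 123, higher in both p62-EGFP tumors by 0.71 (SE 0.34, limma adjusted p = 0.403). Pdgfa and Pdgfra, the alpha receptor, read 65.2 and 55.8 against 78.0 and 40.2, and 57.5 and 109 against 69.1 and 110, with overlapping groups.

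Among regulators of smooth muscle genes, 0 of 5 tested passed limma's adjusted threshold (2 lower at an unadjusted p below 0.05). Of the 5, 3 lay lower in both p62-EGFP tumors and 0 higher, where 22.2% and 26.7% of all tested probe sets did. Their median was -0.48. That median was -0.33 when p62-EGFP tumor 1 was left out, -0.31 when EGFP tumor 1 was, and -0.64 when EGFP tumor 2 was. Srf, which encodes the factor that binds CArG boxes, read 119 and 97.4 in the p62-EGFP tumors, against 199 and 144 in the EGFP tumors (log2 difference -0.59, SE 0.22, limma adjusted p = 0.325). Its coactivator gene Mrtfa read 69.3 and 83.2 against 114 and 125 (log2 difference -0.56, SE 0.18, limma adjusted p = 0.286). Klf4, which encodes a repressor of smooth muscle genes, read 292 and 365 against 519 and 409. Mef2c, a muscle transcription factor gene, read 108 and 154 against 97.4 and 130 and did not separate the groups. The part of these regulators in the Acta2 and Tagln differences was not tested.

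Other contractile genes gave 0 of 10 tested past limma's adjusted threshold (1 lower at an unadjusted p below 0.05), with a median of -0.15. Of the 10, 4 lay lower in both p62-EGFP tumors and 0 higher, where 22.2% and 26.7% of all tested probe sets did. Vcl, which encodes the adhesion protein vinculin, read 233 and 247 in the p62-EGFP tumors, against 368 and 369 in the EGFP tumors (log2 difference -0.59, SE 0.15, limma adjusted p = 0.229). The filamin gene Flna read 351 and 349 against 380 and 468, lower in both by a smaller margin. The tropomyosin gene Tpm2 and the actinin gene Actn1, chosen after their values were seen, completed the 4. Cald1, which encodes caldesmon, read 506 and 480 against 603 and 479, and the LIM protein gene Csrp1 429 and 491 against 517 and 423, both with overlapping groups. The median turned to 0.040 without EGFP tumor 1.

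Other pericyte genes gave 0 of 7 tested past limma's adjusted threshold (0 at an unadjusted p below 0.05). Their median was -0.19 and turned to 0.21 without EGFP tumor 1. Of the 7, 2 lay lower in both p62-EGFP tumors and 0 higher, where 22.2% and 26.7% of all tested probe sets did. The 2 were Art3 and Notch3, named after their values were seen. Notch3, a receptor that maintains mural cells, read 62.8 and 68.2 in the p62-EGFP tumors, against 82.4 and 86.0 in the EGFP tumors (log2 difference -0.30, SE 0.17, limma adjusted p = 0.461). The guanylate cyclase gene Gucy1b1, the transcription factor genes Foxc1 and Nr2f2, and the adhesion gene Mcam (CD146) were the brightest of the list and had overlapping groups, with log2 differences of 0.16, -0.060, 0.094 and -0.22. Adipocyte markers, 4 of 6 listed, summed to 672 and 1133 in the p62-EGFP tumors, against 967 and 2003 in the EGFP tumors, with Fabp4 at 220 and 691 against 699 and 1304 and Lpl at 432 and 360 against 260 and 690. Their 2 tested genes had a median of -0.68, with 1 lower in both p62-EGFP tumors and 0 past limma's adjusted threshold (0 at an unadjusted p below 0.05). Adipoq and Cidec, too dim for the test and named after their values were seen, were higher in both p62-EGFP tumors. They read 11.3 and 63.7 against 5.5 and 8.8, and 8.1 and 18.1 against 2.9 and 0.3. The 8 tested skeletal muscle genes had a median of 1.25, and 0 separated the groups or passed (0 at an unadjusted p below 0.05). Tnnc2 read 735 and 2.2 against 1.0 and 83.1, and Myl1 719 and 0.6 against 1.4 and 53.4.

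**Figure D5:**
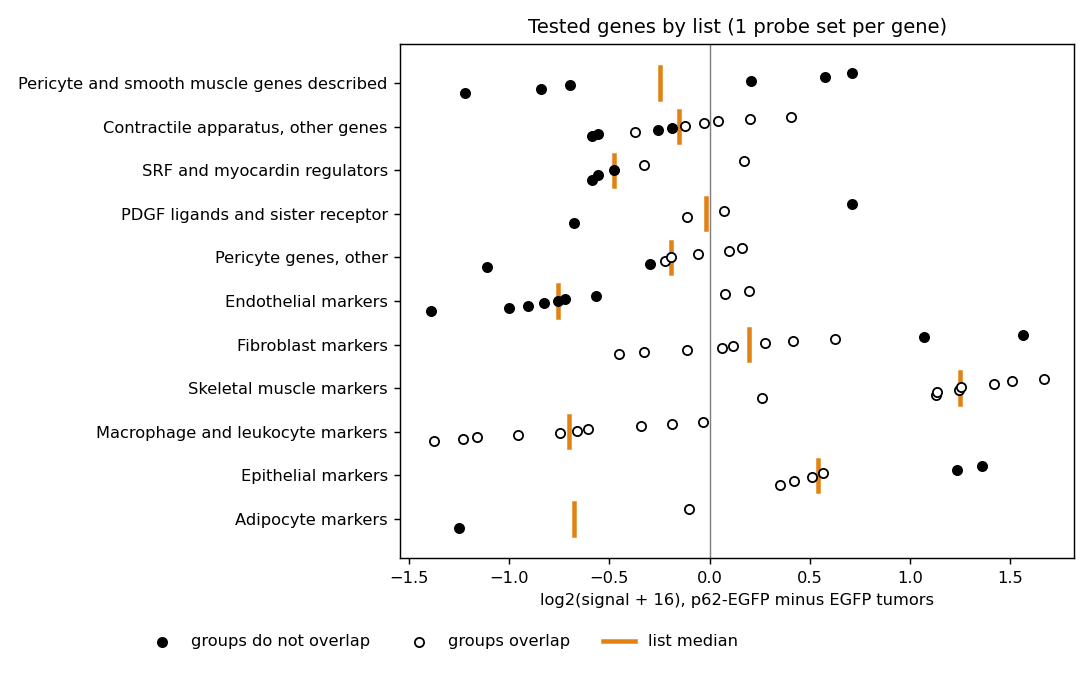
Difference in log2(signal + 16), p62-EGFP minus EGFP, of each tested gene by list, 1 probe set per gene; filled points mark genes whose groups do not overlap and orange bars mark list medians. The 6 genes described split into 3 on each side of 0, and 7 of 9 endothelial genes lie below 0 with groups apart.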

How the data were processed

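The authors deposited 1 table of 1-colour signal intensities on a linear scale for 4 tumors. MAS5 is named in the submitters' processing notes; neither version nor settings are given in the sources used here. Arrays had equal means (150.04 after 2% was trimmed from either end), and the deposited intensity values were kept as scaled by the authors. The 64 control probe sets were left out. Genes were named through the array annotation, from probe sets with 1 symbol only, and all 20 probe sets described matched GRCm38.p6 by Entrez identifier. Values were transformed as log2(signal + 16), and probe sets at or above the 40th percentile of the mean were tested (13576). The groups were compared with lmFit and eBayes (trend) of limma 3.58.1 (R 4.3.3) in two-sided tests, with Benjamini-Hochberg adjustment over all tested probe sets and a threshold of 0.05. The design text names Genes@Work, for which limma stood in. The fit was checked on simulated data with normal noise, where it recovered 9.2% of 2-fold, 59.4% of 4-fold and 82.2% of 8-fold changes. Of its calls there, 3.48% were false. The simulation drew each probe set independently, with the same SD in both groups. In these tumors the EGFP pair differed more than the p62-EGFP pair, so these rates need not hold here. Summaries used Python 3.11.15, numpy 2.4.6 and pandas 2.3.3, and figures matplotlib 3.10.9. The 10 genes and the lists were chosen with earlier results of these data known. Of each other list the brightest tested genes were named, up to 4, or up to 3 for cell markers, and the text marks the exceptions. No detection calls were used, so a dim signal is not shown to be above background. The 4 arrays limit precision, with 2 residual degrees of freedom, and p-values measure only the spread between these tumors. Alternatives covered scaling, pseudocount, filter, variance model, a replicate block, the mean of all probe sets per gene, and fits without 1 tumor.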

Additional observations from a re-analysis of the deposited data

How the results depend on the processing

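Over 117 refits of the 9 tested probe sets, 0 changed direction, and 9 passed limma's adjusted threshold, all without an EGFP tumor. Many of these refits could not change a direction. The filter, variance model and replicate block settings leave the log2 difference of a probe set as it was. Where the groups did not overlap, leaving out 1 tumor cannot reverse it. With all 4 tumors, limma passed 0 member probe sets under any alternative (2 to 5 at an unadjusted p below 0.05). Leaving out 1 tumor gave 0 to 6 members and 0 to 2842 of all probe sets past the threshold. The 12 calls among all probe sets became 6 with no filter, 7 with a filter at the 60th percentile, 25 with a robust variance trend and 1 when the probe sets of a gene were averaged. With the replicate block there were 37 and 0 among the members; same-numbered tumors share only a number, and their deviations correlated at 0.082. The median difference of the tested member probe sets was -0.70, against 0.017 for all tested probe sets. It was -0.078 with no filter, over 20 probe sets, and -0.16 with probe sets averaged, over 6 genes, since genes with several probe sets then count once. It ran from -1.21 to -0.18 when 1 tumor was left out, -0.18 without EGFP tumor 2. Medians of the 4 other pericyte and smooth muscle lists were recomputed likewise, an addition made after seeing the data. That of other pericyte genes also turned, to 0.017, with the filter at the 60th percentile, which left 4 genes. That of the PDGF list stayed within 0.17 of 0 except for 0.71 at that filter, which left only Pdgfc. That of the SRF and myocardin regulators was -0.33 with no filter and -0.36 with probe sets averaged.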

Other observations

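Several contractile and mural genes were too dim for the test and are given as values only, named after their values were seen. Ppp1r14a, which encodes an inhibitor of smooth muscle myosin phosphatase, read 13.5 and 11.0 in p62-EGFP tumors 1 and 2, against 54.6 and 20.1 in EGFP tumors 1 and 2. Actg2, the gamma actin of smooth muscle, read 13.3 and 17.9 against 9.2 and 6.5, in the direction of Acta2. Myocd, which encodes the coactivator myocardin, read 4.7 and 6.4 against 3.1 and 2.9. The contractile marker Lmod1 read 2.2 and 2.2 against 1.2 and 0.7. The potassium channel genes of pericytes, Kcnj8 and Abcc9, read 19.3 and 10.8 against 19.3 and 33.1, and 10.7 and 6.3 against 9.7 and 16.7.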
